A study of Mus musculus with 30 samples.

Results

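Mouse extraocular muscle, the striated muscle that turns the eyeball, was cultured, and its total RNA was hybridised to Affymetrix arrays of the A and B type. The comparison described here is 24 h against 0 h. It rests on 3 arrays per time and type, chosen by the time in their titles, or 12 of the series' 30 arrays. The arrays of 4, 12 and 48 h entered the estimate of the spread and are quoted only as context. All groups carry the same label apart from the time. Strain, genotype, age, medium, treatment and the event at time 0 are not in the labels. Nor is it stated if replicates came from separate cultures, or if an A and a B array of equal number carried 1 RNA. The p-values therefore cover the array-to-array spread alone, and this may be technical. For 1 B array, 0 h replicate 1, title and source name disagree: the title says extraocular muscle and the source name leg muscle. It was kept by its title, and calls on the B arrays are given with and without it.

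As background, myoblasts leave the cell cycle, fuse and build sarcomeres when they differentiate, under transcription factors of the MyoD family. Id proteins, which are targets of bone morphogenetic protein signalling, bind the partners of those factors and hold differentiation back. Extraocular muscle is known for keeping embryonic and perinatal myosins that other adult muscles lose. Cultured cells also answer to their medium: the aryl hydrocarbon receptor and NRF2 switch on detoxifying enzymes, and ATF4 switches on amino acid synthesis and transport when amino acids run short or protein folding is disturbed.

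Values are array intensities. Log2 changes are differences of log2(intensity + 16), 24 h minus 0 h, with the standard error, and understate changes of dim genes. Adjusted p-values are from limma with Benjamini-Hochberg adjustment over all probe sets of the array type, and a gene is said to have risen or fallen where this was under 0.05. On the A arrays 755 of 13576 probe sets passed (5.56%), 438 higher (3.23%) and 317 lower (2.34%). On the B arrays 131 of 13507 passed (0.97%), 94 higher (0.696%) and 37 lower (0.274%). Dropping 0 h replicate 1 from the A arrays left 424 calls, dropping 24 h replicate 1 left 358, and dropping 24 h replicate 2 left 397. On the B arrays, 47 calls were left when the leg-labelled array was dropped, 81 or 84 when 0 h replicate 2 or 3 was, and 54 or 24 when 24 h replicate 1 or 2 was. Because each array had been scaled to a fixed mean, every change is relative to its array. In whole-culture RNA, fewer cells of a type and less RNA per cell cannot be told apart.

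An array that stood apart has to be named first. Across 34 genes of the muscle lists that rose on the A arrays, 24 h replicate 3 was the lowest of its group for 33, by a median log2 difference of -0.75 from the other 24 h arrays. For 32 of these genes it lay nearer the 12 h mean than the other 24 h arrays. At 0 h, replicate 3 was the highest of its group for 25 of the 34. For 17 matrix genes that rose, 24 h replicate 3 was the highest of its group for 13. What sets these arrays apart was not tested. Results below are given without an array where that changed a call or moved a count by over 1.5 times. For some genes a lost call is given only through the count of their list.

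The labelled tissue was checked against defining markers. Skeletal muscle markers were bright at both times: the sum of 7 on the A arrays lay between 36474 and 50057 at 0 h and between 39494 and 51604 at 24 h, and of the 7 only Myh3 passed. No marker tested told extraocular from limb muscle: of 2 extraocular muscle markers found on the A arrays Tbx1 lay below the intensity filter of 101, and Pitx1 is also a hind limb factor. Pitx1 had 278, 177 and 273 at 0 h and 209, 223 and 225 at 24 h. Of the markers of limb origin, Pax3 and Lbx1 (-0.09 ± 0.23) did not pass either, and Tbx5 lay below the filter. Markers of endothelium and leukocytes were dim: 8 of 9 and 6 of 9 A array members lay below the filter, among them Pecam1, Cdh5 and Ptprc, and so did all 4 adipocyte markers. None of the other leukocyte, endothelial, Schwann cell, tendon, epithelial or satellite cell markers tested passed. All 6 fibroblast markers on the A arrays lay below the filter, and are given with the matrix genes. Some smooth muscle and pericyte markers did move, and are described with the matrix genes.

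The members of 60 lists of pathways and gene families were read out, 1 probe set a gene. Of all 12542 genes tested 548 passed (4.37%), 337 higher (2.69%) and 211 lower (1.68%), and the median log2 change was 0.002. In 23 lists members only rose, in 15 they only fell, in 14 they did both, and in 8 none passed. The 8 lists were those of the myogenic regulatory factors, Mef2 factors, head muscle regulators, ubiquitous oxidative phosphorylation, endoplasmic reticulum chaperones, mitosis, cell cycle inhibitors and the proteasome. Values of the 3 arrays at 0 h and the 3 at 24 h did not overlap for 24.3% of A array probe sets (11.5% higher, 12.7% lower) and 13.8% of B array probe sets (7.09% higher, 6.72% lower). These shares are the background for each statement that groups lay apart. A gene could be tested through the time where it was bright: 18 of the 112 named calls higher had a 0 h mean below the filter, and 11 of the 71 lower a 24 h mean below it. With no filter 16 and 10 of these passed, and Atf3 (adjusted p = 0.052), Ankrd23 (0.052) and Rgs4 (0.057) did not.

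**Figure D1:**
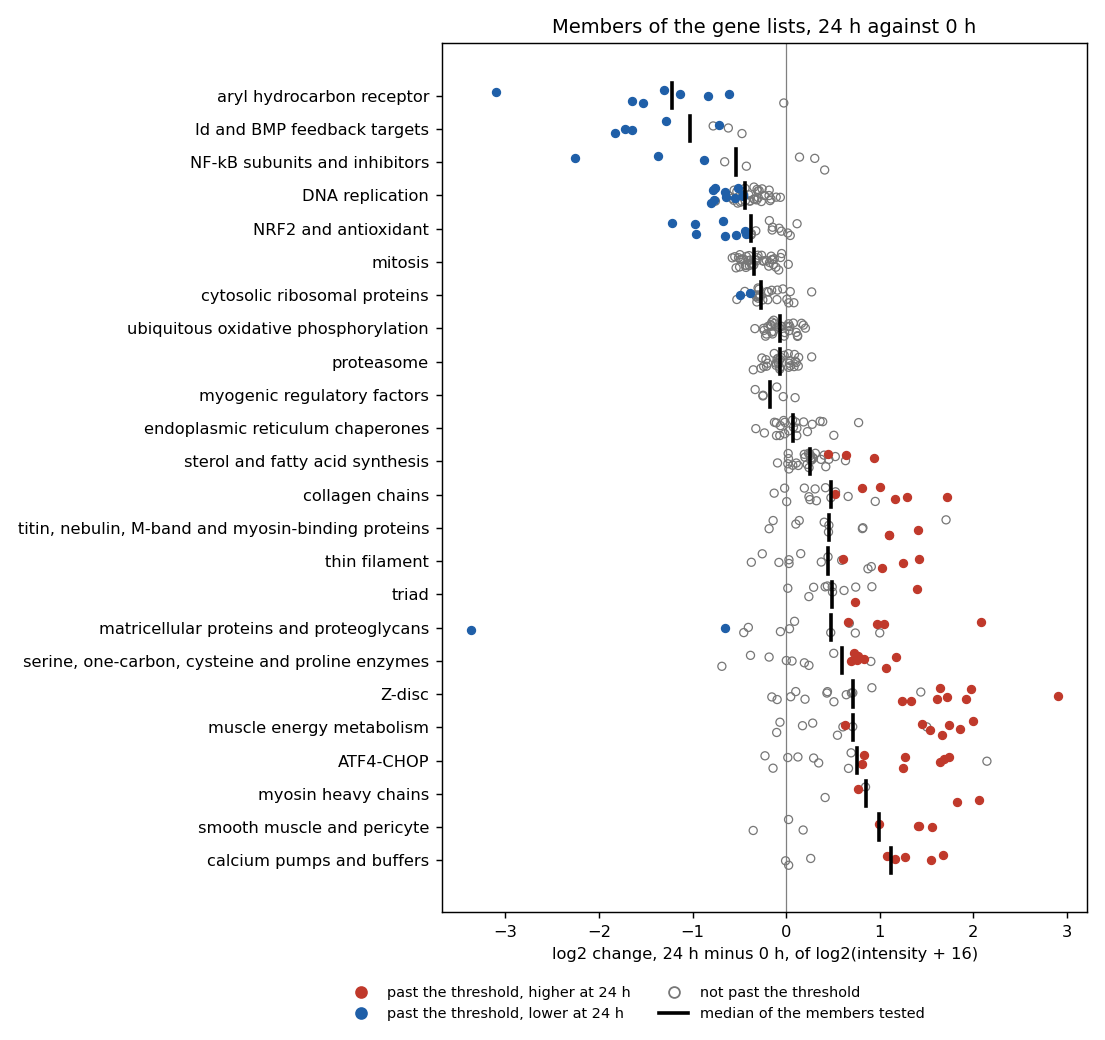
Log2 change (24 h minus 0 h) of every tested member of 24 of the gene lists, 1 point per gene. Red and blue points passed the threshold as higher or lower, open points did not, and the bar is the median of the list. The aryl hydrocarbon receptor list has its median at -1.22 and calcium pumps and buffers at 1.12.

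None of the 6 myogenic regulatory factors tested passed, while Id genes fell and most probe sets of Mef2c rose. Myod1, a master regulator of the myoblast, had 8555, 8526 and 5251 at 0 h and 6002, 6259 and 6125 at 24 h (log2 change -0.24 ± 0.18, limma adjusted p = 0.52). Myog, which drives terminal differentiation, had 11259, 13594 and 7231 at 0 h and 11256, 10913 and 8461 at 24 h (-0.03 ± 0.23). For both genes the groups overlapped, and 0 h replicate 3 was the lowest of all. Pax7, the satellite cell factor (-0.33 ± 0.18), Pax3 (-0.10 ± 0.23) and the E proteins Tcf3 (-0.25 ± 0.13) and Tcf12 (0.10 ± 0.21), with which the MyoD family pairs, did not pass either. Nor did a brighter Pax7 probe set on the B arrays, with 2485, 2331 and 2189 against 2379, 2072 and 3392. Myf5 and Myf6 lay below the intensity filter and were not tested. Mef2 factors work with the MyoD family. Of 3 tested none passed by the probe set that stood for the gene, but Mef2c was at the threshold (0.73 ± 0.21, adjusted p = 0.0507). It passed without 0 h replicate 2, 24 h replicate 3, 4 h replicate 2 or 12 h replicates 1 or 3, and with the replicate block, the filter at the 60th percentile, a pseudocount of 64 or only the 6 arrays compared. The other 4 Mef2c probe sets, looked at after their values were seen, rose, with log2 changes of 1.00, 1.04, 1.14 and 1.38, and kept their calls in all settings. The brightest of these at 24 h had 1292, 1441 and 1505 at 0 h and 3288, 3832 and 2442 at 24 h (1.14 ± 0.15, adjusted p = 0.0003).

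Of the 8 Id genes and bone morphogenetic protein feedback targets tested, 5 fell and none rose, and the list median was -1.03. With the filter at the 60th percentile 3 fell. Id3 had 4198, 3939 and 4066 at 0 h and 1125, 1062 and 1517 at 24 h (log2 change -1.72 ± 0.17, limma adjusted p = 2.1e-05). Id1 had 3897, 3522 and 3222 against 1538, 1531 and 1280 (-1.28 ± 0.17, adjusted p = 0.0003). Id2 had 2295, 1794 and 1860 against 512, 459 and 678 (-1.83 ± 0.25, adjusted p = 0.00044). Every 24 h array lay below every 0 h array for these 3, and the calls were kept without any single array. A second Id2 probe set fell by 1.65 and another (-0.80) did not pass. Atoh8, a helix-loop-helix factor, fell from 313 ± 24.2 to 90.2 ± 18.4 (-1.64 ± 0.27, adjusted p = 0.0017), and its mean was 24.2 at 48 h. Smad6, an inhibitor of that signalling, fell by 0.71 ± 0.18 (adjusted p = 0.029). The Smad6 call was lost without any 1 array of 0 h or 24 h except 24 h replicate 3 (adjusted p from 0.067 to 0.15). Smad7 (-0.62 ± 0.23), Skil (-0.47 ± 0.17) and Id4 (-0.78 ± 0.43) did not pass. The ligand Bmp4 was higher, at 143, 195 and 270 against 61.1, 78.2 and 66.7 (1.33 ± 0.30, adjusted p = 0.015), and the antagonist Grem1 lower (-0.90 ± 0.21, adjusted p = 0.015). The call of Bmp4 was lost without 0 h replicate 1, 24 h replicate 2 or 24 h replicate 3 (adjusted p 0.058, 0.052 and 0.066), and that of Grem1 without 0 h replicates 1 or 3 or 24 h replicates 1 or 3 (adjusted p from 0.05 to 0.071).

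Genes of the muscle lists rose in part. The 9 lists cover the sarcomere and muscle ankyrin repeat proteins, and also the triad, calcium pumps and buffers and muscle energy metabolism. Over these lists together, 35 of 97 genes tested rose and none fell (2.69% of all genes rose), 86 had a positive change, and the median was 0.64. Among the 35, the highest mean of the 5 times lay at 24 h for 23 and at 48 h for 11. These genes were picked as higher at 24 h than at 0 h in the same arrays, which favours 24 h in this count. Dropping 0 h replicate 1 or 24 h replicate 1 left 21 risen genes, and dropping 24 h replicate 2 left 20. Without 24 h replicate 3, the array with the low muscle values, 37 rose and the median was 0.74. None of these genes fell in any of these fits.

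Of 5 sarcomeric myosin heavy chains tested, the motors of the thick filament, 3 rose. Myh8, the perinatal form, had 281, 375 and 509 at 0 h and 1852, 2084 and 1126 at 24 h (log2 change 2.07 ± 0.26, limma adjusted p = 0.0002). Myh7, the slow form, had 214, 180 and 258 against 910, 1026 and 552 (1.82 ± 0.22, adjusted p = 0.0002). Myh3, the embryonic form, had 4929, 5018 and 5040 against 10018, 9350 and 6656 (0.77 ± 0.18, adjusted p = 0.018). No groups overlapped, and 24 h replicate 3 was the lowest 24 h array each time. The Myh3 call was lost without 0 h replicate 1, 24 h replicate 1 or 24 h replicate 2 (adjusted p 0.06, 0.099 and 0.083). Myh1, a fast adult form, had 2546, 2921 and 1843 against 4708, 5056 and 3400 and did not pass (0.85 ± 0.31, adjusted p = 0.12), nor did Myh7b (0.42 ± 0.42). The adult fast forms Myh2 and Myh4 lay below the filter on the A arrays, at 44.7, 118 and 39.5 and at 27.3, 22.8 and 28.6 at 24 h. Among the light chains, Myl1 rose by 0.66 ± 0.15 (adjusted p = 0.012) and the embryonic form Myl4 by 0.58 ± 0.16 (adjusted p = 0.045). Myl1 lost its call without 0 h replicates 1 or 2 or 24 h replicate 2 (adjusted p from 0.056 to 0.071), and Myl4 in 9 of the 15 fits without 1 array (highest adjusted p 0.18).

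Of 21 Z-disc genes 8 rose. Myoz2, which binds calcineurin at the Z-disc, had 336, 454 and 497 at 0 h and 2004, 2172 and 1152 at 24 h (log2 change 1.98 ± 0.21, limma adjusted p = 4.7e-05). Lmcd1, a LIM protein, had 75.5, 35.7 and 160 against 747, 867 and 509 (2.91 ± 0.34, adjusted p = 0.00014). Actn2, the α-actinin that anchors thin filaments, had 702, 864 and 1214 against 4108, 4444 and 2305 (1.93 ± 0.25, adjusted p = 0.00026). Csrp3, the muscle LIM protein, rose by 1.24 ± 0.17, the small stretch-responsive protein Smpx by 1.72 ± 0.27 and Fhl1 by 1.64 ± 0.29, while a B array probe set of Fhl1 (-0.60) did not pass. All 6 kept their calls without any single array. Of 15 thin filament genes 4 rose, all troponin subunits, which confer calcium control. Tnnc2, the fast calcium-binding subunit, had 2189, 2140 and 3476 against 7986, 8559 and 4625 (1.42 ± 0.21, adjusted p = 0.00064), and Tnni2, the fast inhibitory subunit, rose by 1.25 ± 0.23 (adjusted p = 0.0035). Tnnt3 (1.03 ± 0.24) and Tnnt2 (0.61 ± 0.16) passed as well, and the count was 2 without 0 h replicate 1, 24 h replicate 1 or 24 h replicate 2. Tnnt3 and Tnnt2 each lost their call in 4 of the 15 fits without 1 array (highest adjusted p 0.095 and 0.14). Of 13 genes of titin, nebulin, the M-band and myosin-binding proteins 3 rose: Mybph (1.11 ± 0.19, adjusted p = 0.0021), Myom1 (1.42 ± 0.36, adjusted p = 0.027) and Myom2 (1.10 ± 0.29, adjusted p = 0.037). The count was 1 without 0 h replicates 1 or 2 or 24 h replicates 1 or 2. Acta1 (0.03 ± 0.14), Des (0.05 ± 0.15) and Ttn (-0.18 ± 0.39), which encode α-actin, desmin and titin, did not pass.

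Of 8 genes of calcium pumps and buffers 5 rose, with a list median of 1.12. Casq2, the calcium buffer of the sarcoplasmic reticulum, had 1804, 2109 and 2829 at 0 h and 6319, 6654 and 3677 at 24 h (log2 change 1.27 ± 0.23, limma adjusted p = 0.0028). Atp2a1, the fast muscle calcium pump, had 1218, 1342 and 967 against 2722, 2638 and 2108 (1.08 ± 0.23, adjusted p = 0.011). Sln, which regulates that pump, had 139, 131 and 490 against 666, 509 and 797 (1.55 ± 0.42, adjusted p = 0.041). Casq1 (1.67 ± 0.46) and Hrc (1.17 ± 0.31) passed too. Atp2a1 lost its call without 24 h replicate 1 or 2 (adjusted p 0.057 and 0.051). Sln and Casq1 lost theirs in 7 of the 15 fits without 1 array (highest adjusted p 0.16 and 0.18), and Hrc in 5 (0.17). The list's count was 2 without 0 h replicates 1 or 2, 1 without 24 h replicates 1 or 2, and 3 without 24 h replicate 3 or 48 h replicates 1 or 2. It was 2 with no filter or no intensity trend. Of 12 triad genes Cacna1s, the voltage sensor, rose from 209 ± 39.9 to 601 ± 212 (1.40 ± 0.23, adjusted p = 0.0019) and Cacnb1, its β subunit, by 0.74 ± 0.21 (adjusted p = 0.047). The Cacnb1 call was lost in 11 of the 15 fits without 1 array (highest adjusted p 0.2). Scn3b, a sodium channel β subunit, had 57.7, 44.2 and 85.4 against 245, 276 and 171 (1.66 ± 0.24, adjusted p = 0.00052). Cav3, the caveolin of muscle, rose by 1.34 ± 0.29 (adjusted p = 0.012), and lost its call without 0 h replicate 1 or 24 h replicate 1 (adjusted p 0.054 and 0.071). It was the only one of 20 genes of the dystrophin complex and membrane repair to pass by the probe set that stood for the gene, and 3 passed by any probe set. The small heat shock proteins Hspb2 (1.52 ± 0.27, adjusted p = 0.003) and Hspb3 (1.22 ± 0.22, adjusted p = 0.003), both found in striated muscle, rose among 8 tested, and 4 of the list passed without 24 h replicate 3.

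Muscle forms of metabolic enzymes rose, and the ubiquitous respiratory chain did not pass in any member. Of 15 genes of muscle energy metabolism 7 rose, with a median of 0.71. Cox6a2, the muscle form of a cytochrome oxidase subunit, had 492, 536 and 505 at 0 h and 2085, 2046 and 1258 at 24 h (log2 change 1.75 ± 0.23, limma adjusted p = 0.00034). Cox8b, another such form, had 234, 252 and 251 against 1226, 1186 and 552 (1.86 ± 0.31, adjusted p = 0.0019). Pygm, glycogen phosphorylase, had 273, 246 and 241 against 982, 656 and 590 (1.46 ± 0.23, adjusted p = 0.00097). Fabp3, which carries fatty acids, rose by 2.00 ± 0.36 (0.16 and not passed in a B array probe set), Pgam2 by 1.67 ± 0.28 and myoglobin, Mb, by 1.53 ± 0.28. All 6 kept their calls without any single array. Ckm, muscle creatine kinase, had 624, 929 and 364 against 2364, 1874 and 1152. Its groups did not overlap, but it did not pass (1.51 ± 0.59, adjusted p = 0.16), nor did a B array probe set (-0.23). Of 30 ubiquitous oxidative phosphorylation genes none passed, and the median was -0.07, with changes between -0.33 and 0.21.

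**Figure D2:**
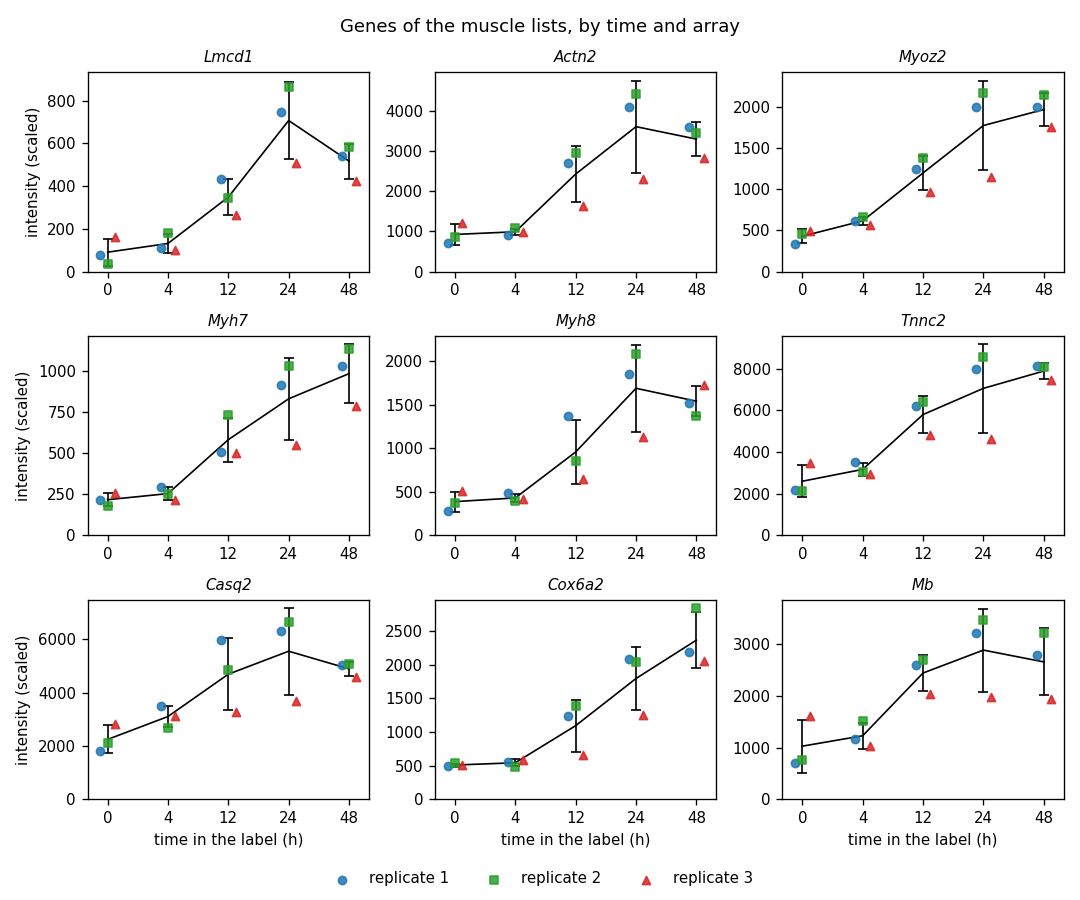
Intensity of 9 genes of the muscle lists against the time in the label (evenly spaced, in h), 3 arrays per time, on axes that start at 0. Points are single arrays, the line joins the means and bars are the SD. In all 9 panels replicate 3, the triangle, is the lowest point at 24 h and still above the points of 0 h.

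The promoters of the risen muscle genes were read for E-boxes, the sites on which MyoD family dimers bind, because these genes moved together. Promoters were the 250 bases before RefSeq start sites (GRCm38.p6), and 28 of the 35 genes had 1 or more, 39 in all. CAGCTG, which is its own reverse complement, was found in 14 of them (35.9%), against 13.0% of all 32851 promoters of the table and 12.5% of those of genes tested. In the muscle list genes that did not pass the share was 37.9%. The general form CANNTG, which includes CAGCTG, was in 87.2% of the 39, 74.1% of those of members that did not pass, 58.5% of those of genes tested and 66.2% of all promoters. A match describes the letters only. The matched promoters with the largest changes are those of Lmcd1 (chr6:112273508-112273757, plus strand) and Myoz2 (chr3:123034988-123035237, minus strand), with CAGCTG in capitals beginning 168 and 12 bases before the start.
Lmcd1: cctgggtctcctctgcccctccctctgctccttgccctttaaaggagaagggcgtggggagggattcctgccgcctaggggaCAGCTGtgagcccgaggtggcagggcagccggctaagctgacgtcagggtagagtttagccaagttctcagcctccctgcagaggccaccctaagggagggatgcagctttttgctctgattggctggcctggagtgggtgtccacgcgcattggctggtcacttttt
Myoz2: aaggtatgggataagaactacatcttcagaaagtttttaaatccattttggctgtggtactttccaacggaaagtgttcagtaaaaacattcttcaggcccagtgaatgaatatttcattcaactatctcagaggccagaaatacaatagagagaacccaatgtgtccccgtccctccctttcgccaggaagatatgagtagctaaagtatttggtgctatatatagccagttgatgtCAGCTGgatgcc

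Nearly the whole aryl hydrocarbon receptor list fell. Of 8 genes tested 7 were lower (1.68% of all genes were), and Arnt, the receptor's partner, was the other (-0.02). Cyp1a1, the enzyme most often used to read the receptor's activity, had 768, 860 and 731 at 0 h and 79.1, 81.2 and 71.8 at 24 h (log2 change -3.10 ± 0.22, limma adjusted p = 1.3e-06). Ahrr, the receptor's repressor and itself a target, had 228, 200 and 158 against 54.5, 73.8 and 44.6 (-1.53 ± 0.24, adjusted p = 0.0013). Nqo1, a quinone reductase shared with NRF2, had 1928, 2234 and 1622 against 774, 578 and 479 (-1.65 ± 0.16, adjusted p = 1.7e-05). In none of the 3 did the groups overlap. Aldh3a1 fell by 1.30 ± 0.26, Cyp1b1 by 1.13 ± 0.18 and Tiparp by 0.61 ± 0.13, and a second Cyp1b1 probe set (-0.42) did not pass. These 6 calls were kept without any single array. For Cyp1a1 and Cyp1b1 the means at 4 h were not yet lower, at 1369 ± 122 and 1746, against 787 ± 66.3 and 1022 at 0 h.

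Antioxidant genes fell beside them. Of 19 NRF2 and antioxidant genes 8 fell and none rose, with a median of -0.37. Gclm, the modifier of glutathione synthesis, had 1451, 1146 and 1222 at 0 h and 525, 595 and 488 at 24 h (log2 change -1.22 ± 0.15, limma adjusted p = 0.0002). Srxn1, sulfiredoxin, had 1017, 714 and 801 against 435, 460 and 362 (-0.98 ± 0.16, adjusted p = 0.0015). Txnrd1, thioredoxin reductase, had 5480, 4924 and 5442 against 3697, 3414 and 2859 (-0.67 ± 0.12, adjusted p = 0.0021). All 3 lay apart between the times. Pgd fell by 0.96 ± 0.18, thioredoxin, Txn1, by 0.43 ± 0.10 and Nfe2l2, which encodes NRF2, by 0.44 ± 0.10. Dropping 0 h replicate 1 or 24 h replicate 2 left 5 of the 8, and dropping 24 h replicate 1 left 4. Txn1 lost its call without 0 h replicate 1 or 24 h replicate 1 (adjusted p 0.073 and 0.07), and Nfe2l2 without 0 h replicates 2 or 3 or 24 h replicates 1 or 2 (adjusted p from 0.066 to 0.082). Hmox1, chosen after its values were seen, did not pass (-0.14). Of 8 glutathione S-transferases Gsta4, which conjugates lipid peroxidation products, fell from 1538, 1146 and 1815 to 299, 257 and 296 (-2.31 ± 0.21, adjusted p = 1.5e-05). Metallothionein Mt2 had 2487, 1509 and 3217 against 720, 906 and 768 (-1.51 ± 0.26, adjusted p = 0.0024).

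NF-kB subunits and inhibitors also fell in 3 of 8 cases. Nfkb2, a subunit precursor, had 661, 576 and 568 at 0 h and 222, 202 and 243 at 24 h (log2 change -1.37 ± 0.13, limma adjusted p = 1.5e-05), while a second Nfkb2 probe set (-0.24) did not pass. Nfkbia, the feedback inhibitor IκBα, had 5519, 5089 and 5089 against 2727, 2662 and 3165 (-0.88 ± 0.11, adjusted p = 0.0002). Another 3 Nfkbia probe sets fell, by 1.05 and 1.10 on A and by 1.15 on B, and 1 (-0.56) did not pass. The B call was kept without the leg-labelled array and lost without 24 h replicate 2. Nfkbie, on the B arrays, had 440, 404 and 753 against 55.5, 105 and 141 (-2.25 ± 0.41, adjusted p = 0.015). It kept its call without the leg-labelled array and lost it without 0 h replicate 3, 24 h replicate 1 or 24 h replicate 2 (adjusted p 0.068, 0.06 and 0.058). Among cytokines and growth factors, the chemokine Cx3cl1 fell by 0.86 ± 0.15 (adjusted p = 0.0023, and -0.21 without passing in its other probe set) and Vegfc by 1.44 ± 0.23 (adjusted p = 0.0016). Vegfc was tested only through its 0 h values. Ptx3, a secreted pattern recognition protein, rose from 72.1, 146 and 116 to 523, 534 and 582 (2.19 ± 0.28, adjusted p = 0.00022).

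**Figure D3:**
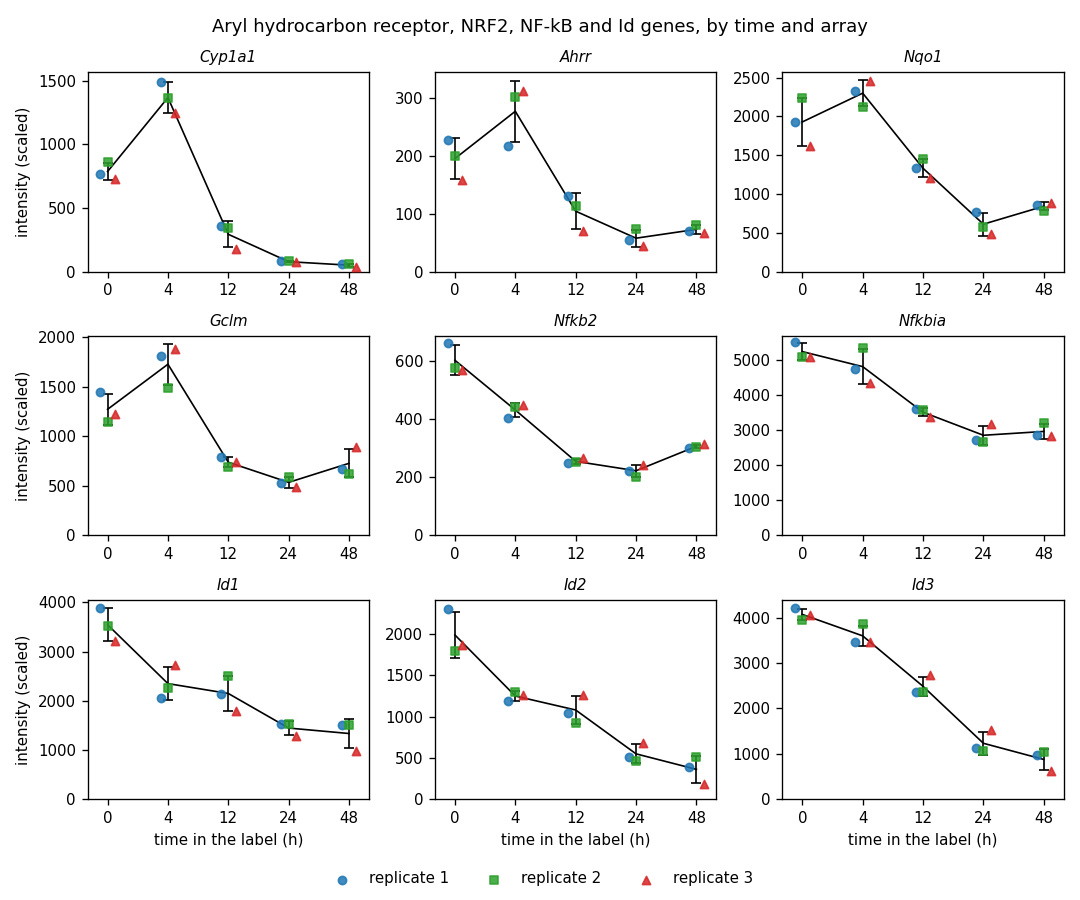
Intensity of 9 genes that fell against the time in the label (evenly spaced, in h), 3 arrays per time, on axes that start at 0. Points are single arrays, the line joins the means and bars are the SD. Cyp1a1 lay between 71.8 and 81.2 at 24 h and between 731 and 860 at 0 h, with its highest mean at 4 h.

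Genes of the ATF4 response rose. Of 16 ATF4-CHOP genes 7 rose and none fell, with a median of 0.76, and of 16 enzymes for serine, one-carbon, cysteine and proline synthesis 7 rose, with a median of 0.60. Over both lists the count was 14 of 32, and 8 without 24 h replicate 1 or without 24 h replicate 2. For 13 of the 14 the highest mean of the 5 times lay at 48 h. Trib3, a pseudokinase that damps ATF4 signalling, had 104, 135 and 59.6 at 0 h and 355, 327 and 313 at 24 h (log2 change 1.65 ± 0.21, limma adjusted p = 0.00024). Atf5, a related factor, had 808, 715 and 651 against 1786, 1887 and 1557 (1.25 ± 0.15, adjusted p = 0.0002). Nupr1, a stress-induced chromatin protein, had 340, 212 and 226 against 833, 940 and 791 (1.69 ± 0.22, adjusted p = 0.00032). Chac1, which degrades glutathione, had 403, 383 and 311 against 1064, 1081 and 627 (1.27 ± 0.18, adjusted p = 0.00044). The groups lay apart for all 4, and the calls were kept without any single array. Stc2 (0.83 ± 0.20) and Atf3 (1.75 ± 0.43) passed as well. Stc2 lost its call without 0 h replicate 1 or 24 h replicates 1 or 2 (adjusted p from 0.099 to 0.12), and Atf3 without 0 h replicates 1 or 2 or 24 h replicates 1 or 3 (adjusted p from 0.071 to 0.1). Atf4 itself, which is regulated mainly at translation, did not pass (0.13), nor did Fgf21 (2.15 ± 0.74, adjusted p = 0.105), with 619, 577 and 279 against 2996, 3185 and 985. Both were chosen after their values were seen.

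The risen amino acid enzymes had log2 changes between 0.69 and 1.17. Mthfd2, of mitochondrial one-carbon metabolism, had 2016, 1894 and 1621 at 0 h and 2980, 3632 and 3293 at 24 h (log2 change 0.84 ± 0.14, limma adjusted p = 0.0018). Psph and Psat1, of serine synthesis, rose by 0.72 ± 0.13 and 0.69 ± 0.13, and a second Psat1 probe set (0.34) did not pass. Cth, of cysteine synthesis, rose by 1.07 ± 0.23 and Aldh18a1, of proline synthesis, by 0.76 ± 0.16. Aldh18a1 lost its call without 24 h replicates 1 or 2 (adjusted p 0.056 and 0.054), Cth without 24 h replicate 2 (adjusted p 0.053), and Gpt2 (1.17 ± 0.30) without 0 h replicate 3 or any 24 h array (adjusted p from 0.07 to 0.11). Of 13 amino acid transporters, Slc7a5, of leucine uptake, rose from 1800, 1462 and 1328 to 3256, 3218 and 2703 (1.00 ± 0.15, adjusted p = 0.00097). Slc1a4 passed (0.57 ± 0.15, adjusted p = 0.038) but lost its call in 8 of the 15 fits without 1 array (highest adjusted p 0.17). Of 18 tRNA synthetases Aars (0.47 ± 0.11) and Gars (0.58 ± 0.15) rose. Aars lost its call without 0 h replicate 3 or any 24 h array (adjusted p from 0.058 to 0.094), and Gars without 0 h replicates 2 or 3 or 24 h replicate 2 (adjusted p from 0.082 to 0.15). None of 23 endoplasmic reticulum chaperones passed (median 0.07).

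**Figure D4:**
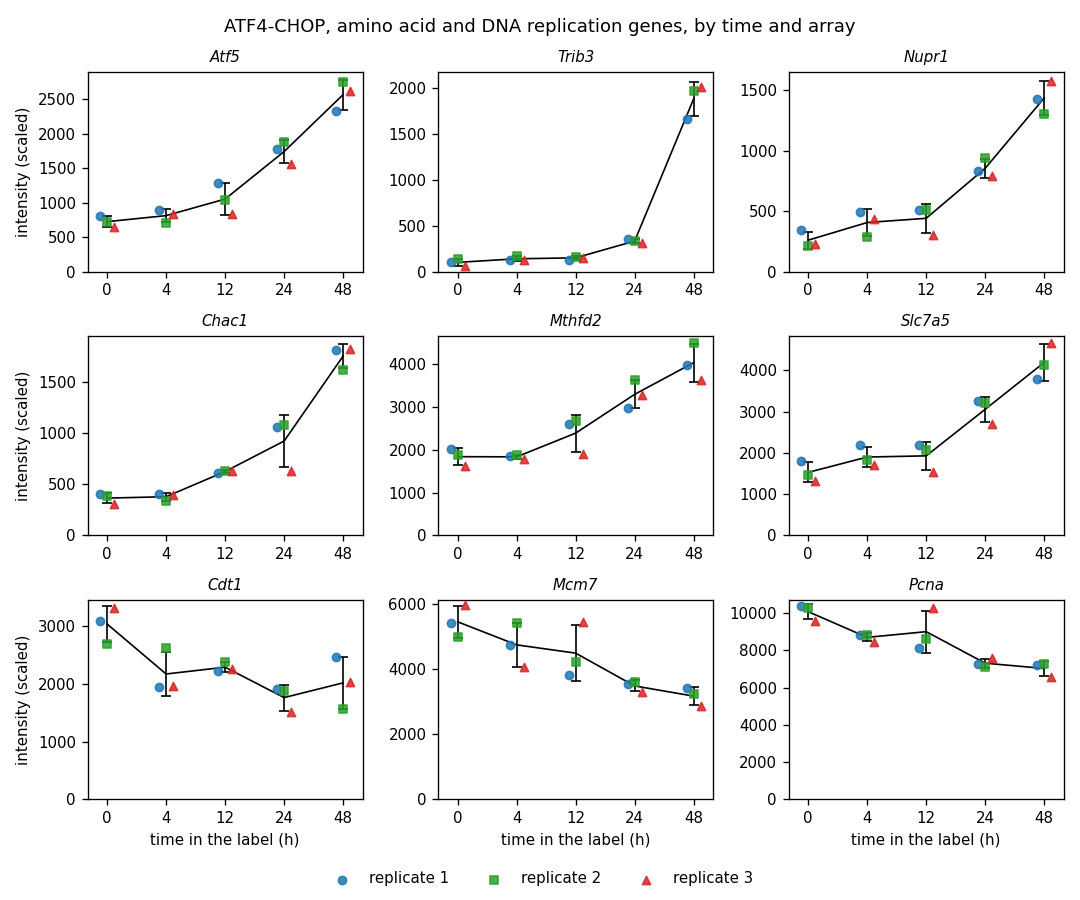
Intensity of 6 genes of the ATF4 and amino acid lists and 3 DNA replication genes against the time in the label (evenly spaced, in h), 3 arrays per time, on axes that start at 0. Points are single arrays, the line joins the means and bars are the SD. Trib3 averaged 332 at 24 h and 1880 at 48 h, while Pcna lay between 7083 and 7568 at 24 h against 9590 to 10344 at 0 h.

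The risen genes of these lists were read for TGATGNAA on both strands, the core of the composite sites that C/EBP and ATF proteins share. It was found in 4 of 15 promoters of 13 genes (26.7%), those of Asns, Atf3, Chac1 and Nupr1, against 3.45% of all promoters and 2.06% of those of genes tested. Members that did not pass had it in 15.8%. The matched promoters with the largest changes are those of Atf3 (chr1:191183334-191183583, minus strand) and Nupr1 (chr7:126625471-126625720, minus strand), GRCm38.p6 by RefSeq. In both the match lies on the opposite strand, in capitals, beginning 110 bases before the start.
Atf3: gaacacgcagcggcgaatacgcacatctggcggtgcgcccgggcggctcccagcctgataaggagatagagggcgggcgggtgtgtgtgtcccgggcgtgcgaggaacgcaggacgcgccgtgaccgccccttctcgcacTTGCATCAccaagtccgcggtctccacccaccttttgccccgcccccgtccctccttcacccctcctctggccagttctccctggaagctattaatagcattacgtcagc
Nupr1: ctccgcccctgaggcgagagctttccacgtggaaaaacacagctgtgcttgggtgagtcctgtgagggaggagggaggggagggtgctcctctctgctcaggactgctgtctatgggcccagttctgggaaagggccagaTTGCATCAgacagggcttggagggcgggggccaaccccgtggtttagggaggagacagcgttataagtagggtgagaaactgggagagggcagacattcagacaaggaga

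Some DNA replication genes fell. All 43 DNA replication genes tested had a negative change, 10 of them passed, and the median was -0.44. Pcna, the sliding clamp, had 10344, 10254 and 9590 at 0 h and 7258, 7083 and 7568 at 24 h (log2 change -0.46 ± 0.10, limma adjusted p = 0.0085, and 0.1 after quantile normalization). Cdt1, which licenses origins, had 3092, 2692 and 3318 against 1909, 1873 and 1504 (-0.78 ± 0.16, adjusted p = 0.0082). Mcm7, of the replicative helicase, had 5421, 4979 and 5956 against 3550, 3609 and 3292 (-0.64 ± 0.14, adjusted p = 0.01). No groups overlapped. Mcm10 fell by 0.76 ± 0.16 (0.06 and not passed in a B array probe set), Rpa2 by 0.65 ± 0.14 and Rrm2 fell by 0.54 ± 0.14. Dropping replicate 1 of 0 h or of 24 h left 4 of the 10 calls, and dropping 0 h replicate 3 or 24 h replicate 2 left 5, where the median stayed between -0.31 and -0.48. It was also 5 with no filter or no intensity trend. Rpa2 lost its call without 0 h replicate 1 or 24 h replicate 1 (adjusted p 0.051 and 0.059), and Rrm2 without 0 h replicates 1 or 3 or any 24 h array (adjusted p from 0.063 to 0.13). Of 41 mitosis genes none passed, with a median of -0.35 and 1 positive change. Dropping 12 h replicate 3 gave 2 calls, both lower, and dropping 24 h replicate 3 or 4 h replicate 2 gave 1. There was also 1 with the filter at the 60th percentile, median scaling or quantile normalization, and Hmmr fell in 1 other probe set (-0.72, adjusted p = 0.036, lost without 0 h replicates 1 or 3 or 24 h replicates 1 or 2). None of 13 cell cycle inhibitors and Gadd45 genes passed. Cdkn1c, chosen after its values were seen, had 2635, 3052 and 491 at 0 h and 5925, 6619 and 5912 at 24 h (1.94 ± 0.82, adjusted p = 0.196). Ccnd1, cyclin D1, fell by 0.62 ± 0.17 (adjusted p = 0.037), and lost this call without any 1 array of 24 h, 0 h replicates 1 or 3 or 48 h replicate 1 (adjusted p from 0.052 to 0.14). The letters TTTNGCGC, an E2F-type site, were in none of the 10 promoters of 9 fallen replication genes, in 18.8% of those of the list's other members and in 1.13% of all promoters.

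Matrix genes rose in part. Over 5 lists of matrix genes 17 of 67 rose and 4 fell, with a median of 0.25. The risen count was 10 with the filter at the 60th percentile, 11 when replicate 1 of 0 h or of 24 h was dropped, and 10 when 24 h replicate 3 was. The fallen count was 2 without 0 h replicate 2 or 3. Of 93 members on the arrays, these 67 passed the intensity filter. Postn, periostin, had 12.6, 11.9 and 66.5 at 0 h and 131, 171 and 166 at 24 h (log2 change 2.08 ± 0.40, limma adjusted p = 0.005). Fbln5, which helps to assemble elastic fibres, had 61.6, 9.1 and 50.7 against 163, 195 and 288 (2.15 ± 0.33, adjusted p = 0.00085). Loxl1, a lysyl oxidase that crosslinks elastin, had 1611, 1724 and 1410 against 3202, 3344 and 3711 (1.11 ± 0.14, adjusted p = 0.0002). The basement membrane linker Nid2 had 997, 1015 and 1274 against 2128, 2258 and 2619 (1.08 ± 0.14, adjusted p = 0.00028). The groups lay apart in all 4. Adamts5 (1.68 ± 0.26) and Adamts1 (1.58 ± 0.24), proteases that cleave proteoglycans, and Ccn4 (1.04 ± 0.18) also rose and, like these 4, kept their calls without any single array. Postn and Fbln5 had 0 h means below the intensity filter and were tested because of their later values. With no filter their adjusted p was 0.011 and 0.0027.

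Of 19 collagen chains 6 rose and none fell, with a median of 0.48. Col6a2 had 349, 502 and 187 at 0 h and 1014, 1044 and 1230 at 24 h (log2 change 1.72 ± 0.34, limma adjusted p = 0.0063), while a second probe set of it (0.76) did not pass. Col5a1 rose by 1.01 ± 0.18 (adjusted p = 0.0028). Col3a1, a fibrillar chain, rose by 0.52 ± 0.12, Col19a1 by 1.29 ± 0.30, Col16a1 by 0.81 ± 0.22 and Col5a3 by 1.17 ± 0.32. Dropping 0 h replicate 1, or any 1 of the 24 h arrays, left 3. Col1a1, the main chain of type I collagen, lay below the intensity filter and was not tested: a probe set of it had 37.8, 31.9 and 34.0 against 159, 102 and 210. Smoc2, a secreted calcium-binding matrix protein, went the other way, with 266, 391 and 416 against 36.2, 2.6 and 30.3 (-3.37 ± 0.47, adjusted p = 0.00044). Ltbp2 fell by 0.99 ± 0.20 (adjusted p = 0.0081), Timp1, a metalloproteinase inhibitor, by 0.63 ± 0.17 (adjusted p = 0.036) and Vcan, versican, by 0.65 ± 0.16 (adjusted p = 0.022, in 1 of its 4 tested probe sets). Timp1 lost its call without any 1 array of 0 h or 24 h replicate 3 (adjusted p from 0.053 to 0.12), and Vcan without 0 h replicates 2 or 3 or any 24 h array (adjusted p from 0.06 to 0.073).

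Some smooth muscle and pericyte markers rose beside the matrix genes, 4 of 7 tested. The sum of 10 on the A arrays was 12709 to 19181 at 0 h and 19211 to 20634 at 24 h. The other 3 of these 10, Cnn1, Myh11 and Lmod1, lay below the intensity filter, at 36.6 or less on every array of both times. Tagln, transgelin, had 670, 864 and 1806 at 0 h and 2771, 3376 and 2987 at 24 h (log2 change 1.56 ± 0.25, limma adjusted p = 0.0015). Pdgfrb, the receptor that marks pericytes, had 467, 296 and 480 against 981, 1099 and 1254 (1.41 ± 0.18, adjusted p = 0.0002). Smtn, smoothelin, had 493, 621 and 516 against 1093, 1130 and 1054 (0.99 ± 0.17, adjusted p = 0.002), and Mcam rose by 1.42 ± 0.31 (adjusted p = 0.012, and 0.056 without 0 h replicate 1). For these genes no groups overlapped. Acta2, the brightest marker, did not pass (0.03 ± 0.20), nor did its B array probe set, with 510, 77 and 113 against 768, 644 and 588 (1.88 ± 0.59, adjusted p = 0.204). The value of 510 is that of the leg-labelled array. No call was made for Rgs5 (-0.35 ± 0.34) or Cspg4 (0.18 ± 0.24). Myl9, the regulatory light chain of smooth and non-muscle myosin, rose from 699, 573 and 178 to 1416, 1594 and 3357 (2.19 ± 0.44, adjusted p = 0.0064). Fibroblast markers, all dim on the A arrays, summed to 201 to 401 at 0 h and 370 to 533 at 24 h over 6 genes. Of these Col1a1 passed in the fit with no filter (1.73, adjusted p = 0.017), and Fap, with 18.8, 54.7 and 28.0 against 58.0, 85.4 and 87.6, did not (0.95, adjusted p = 0.11). Thy1, Lum, Pdgfra and Dcn did not pass in that fit. On the B arrays neither Pdgfra nor Dcn passed. The part of smooth muscle cells, pericytes and fibroblasts in the matrix result was not tested.

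**Figure D5:**
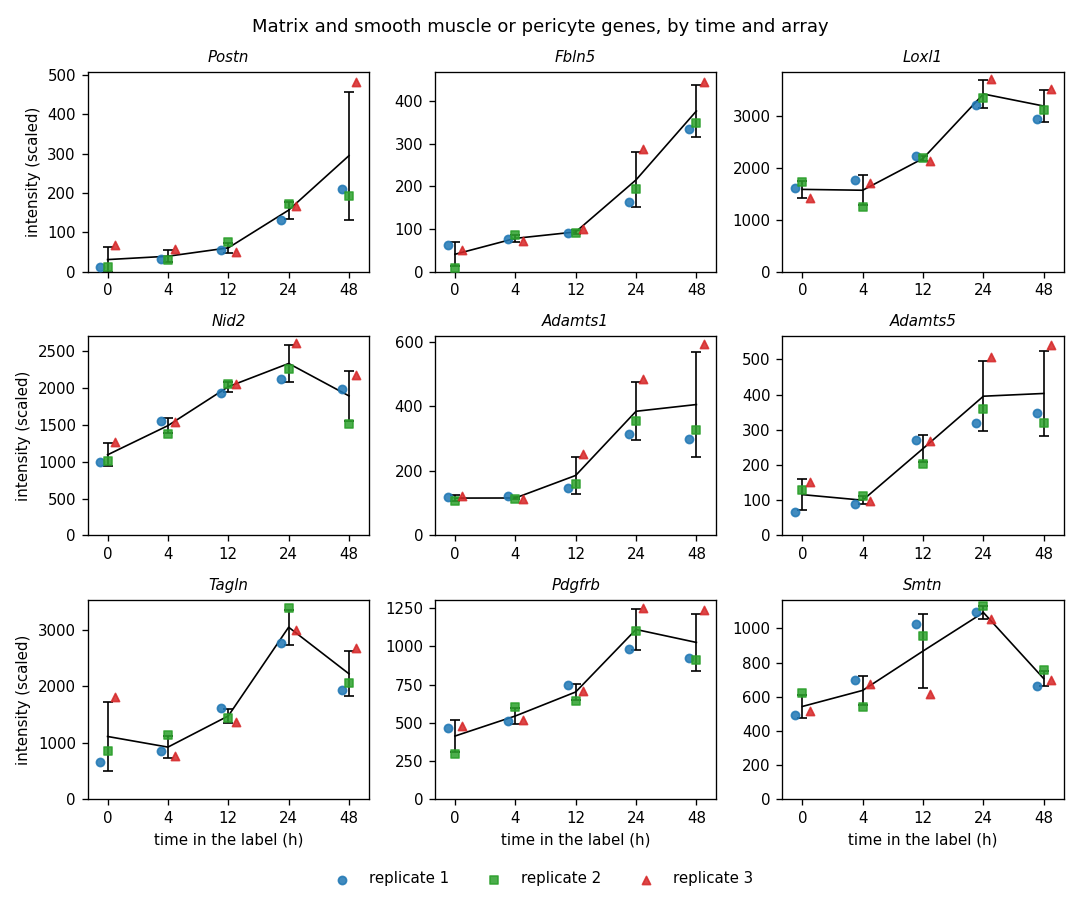
Intensity of 6 matrix genes and of the smooth muscle or pericyte genes Tagln, Pdgfrb and Smtn against the time in the label (evenly spaced, in h), 3 arrays per time, on axes that start at 0. Points are single arrays, the line joins the means and bars are the SD. Loxl1 lay between 3202 and 3711 at 24 h and between 1410 and 1724 at 0 h.

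Growth factor genes changed singly. In the IGF system 3 of 14 genes rose. Igf1 had 206, 188 and 87.9 at 0 h and 300, 399 and 536 at 24 h (log2 change 1.32 ± 0.26, limma adjusted p = 0.0056). Igfbp3, which binds it, had 153, 204 and 236 against 716, 892 and 566 (1.79 ± 0.29, adjusted p = 0.0014). Irs1 rose by 0.67 ± 0.18 (adjusted p = 0.037), and lost its call in 6 of the 15 fits without 1 array (highest adjusted p 0.16). Of 16 Notch pathway genes 2 rose. Notch3, a receptor of pericytes and muscle stem cells, rose by 0.80 ± 0.16 (adjusted p = 0.0081), and the target gene Hes1 by 0.50 ± 0.14 (adjusted p = 0.049), a call lost in 12 of the 15 fits without 1 array (highest adjusted p 0.15). Among genes that answer to growth factor signalling, Junb had 869, 743 and 802 against 406, 468 and 368 (-0.94 ± 0.14, adjusted p = 0.00084). Egr2 fell by 1.21 ± 0.22 and Klf10 by 1.08 ± 0.16, while Spry1, a feedback inhibitor of that signalling, rose by 1.13 ± 0.22 (adjusted p = 0.005). The groups of Junb, Egr2, Klf10 and Spry1 lay apart. Of 17 such feedback inhibitors tested 1 rose and 3 fell (Dusp4, Errfi1 and Spred2), with a median of -0.23. The fallen count was 1 without 0 h replicates 1 or 3 or any 24 h array, and with no filter or no intensity trend. Dusp4, on the B arrays, lost its call without the leg-labelled array (adjusted p 0.07).

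Lipid and neuronal genes gave some of the largest single changes. Pdk4, which restrains glucose oxidation, had 812, 875 and 1042 at 0 h and 204, 200 and 240 at 24 h (log2 change -2.004 ± 0.19, limma adjusted p = 1.6e-05). The lipid droplet protein Plin2 fell by 0.84 ± 0.12 and Angptl4 by 1.15 ± 0.23, and Cpt1a, of fatty acid entry into mitochondria, fell by 0.54 ± 0.13. Cpt1a lost its call without 0 h replicates 2 or 3 or any 24 h array (adjusted p from 0.057 to 0.086). Cd36, a fatty acid transporter, rose in both probe sets, by 2.28 ± 0.47 and 1.68 ± 0.29, and the first lost its call without 0 h replicate 1 (adjusted p = 0.05). Of 29 genes of sterol and fatty acid synthesis 28 had a positive change, with a median of 0.26, and 3 passed: Dhcr7 (0.94 ± 0.15), Ebp (0.64 ± 0.13) and Scd2 (0.45 ± 0.11). Scd2 lost its call without 0 h replicate 2 or 24 h replicate 1 (adjusted p 0.083 and 0.085). The neurofilament genes Nefm, with 304, 264 and 251 against 48.4, 66.8 and 15.8 (-2.38 ± 0.29, adjusted p = 0.0002), and Nefl (-2.43 ± 0.38, adjusted p = 0.0011) fell. Both of these A array probe sets were tested only through their 0 h values, since the mean of the other times lay below the filter. A Nefl probe set on the B arrays, above the filter of 199.6 at both times, had 1663, 1272 and 1654 against 616, 613 and 361. Its groups did not overlap, with or without the leg-labelled array. Of the other 3 neuron markers tested, Stmn2 (-0.45 ± 0.26), Tubb3 (0.44 ± 0.16) and Syt1 (-0.28 ± 0.17), none passed.

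The B arrays gave few firm calls. Abcc4, a transporter of cyclic nucleotides and drugs, had 1719, 1560 and 1735 at 0 h and 352, 573 and 299 at 24 h (log2 change -2.04 ± 0.20, limma adjusted p = 0.00012). Dynap had 3489, 3228 and 4561 against 1158, 1040 and 590 (-2.04 ± 0.22, adjusted p = 0.00025). Both kept their calls without the leg-labelled array and without every other single array. Ankrd23, a muscle ankyrin repeat protein of the titin filament, had 41.2, 83.5 and 44.1 against 1021, 1014 and 152 (3.01 ± 0.62, adjusted p = 0.03), so that 24 h replicate 3 again lay nearest 0 h. Without the leg-labelled array the adjusted p was 0.11, and the call was lost in 7 of the 15 fits without 1 array. The related Ankrd1 (0.07 ± 0.21) and Ankrd2 (1.42 ± 0.57), on the A arrays, did not pass.

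Hoxd13, a gene of distal limb patterning, had 73.5, 39.3 and 42.7 at 0 h and 380, 579 and 466 at 24 h (log2 change 2.87 ± 0.54, limma adjusted p = 0.019). It kept its call without the leg-labelled array, but lost it without 0 h replicates 2 or 3 or any 24 h array (adjusted p from 0.053 to 0.1). A Hoxd13 probe set on the A arrays lay below the filter and did not show this rise, with 10.3, 10.5 and 4.2 against 6.3, 5.0 and 15.5. None of the other 8 Hox genes tested passed: Hoxa3, Hoxa5, Hoxa9, Hoxa10, Hoxb3, Hoxc5, Hoxc6 and Hoxd3 had changes between -1.45 and 0.30. Over 7 Hox genes tested on the B arrays, the leg-labelled array was the highest of the 0 h arrays for 4 and the lowest for 3. Its mean correlation with the other 0 h arrays of its type was 0.865, against 0.852 and 0.857 for those.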

How the data were processed

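RNA of cultured mouse extraocular muscle was measured on 15 A and 15 B arrays, 3 per time. The deposited values are intensities, 1 per probe set. The authors' software and summary method were not given in the sources used here. The file values show each array scaled to a 2% trimmed mean of 500.2 (A) or 500.1 (B). The number of arrays limits the precision: the median standard error was 0.179 (A) and 0.266 (B) on the log2 scale. Gene symbols came from the platform annotation, and a probe set with several symbols or none was not named.

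Probe sets with a mean intensity above the 40th percentile (101 on A, 199.6 on B) were tested as log2(value + 16). The fit (limma 3.58.1, R 4.3.3) had 1 mean per time over all 15 arrays of a type and an intensity trend. P-values were adjusted by Benjamini-Hochberg within the type. On simulated data of 24 h against 0 h it recovered 75% of 100 log2 changes of 1 and 100% of 100 of 2 among 13576 probe sets of A, and 36% and 85% among 13507 of B. Of the simulated calls 4.37% were false on A and 2.42% on B. The simulated spread was independent between probe sets, so arrays that stand apart over many genes, as in the data, were not covered. Tables and figures used Python 3.11.15, pandas 2.3.3 and matplotlib 3.10.9.

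Genes, lists and comparison were chosen with earlier results of these data known. A gene in a list was represented by 1 probe set. The genes described were drawn from the 12 largest rises and 12 largest falls on A and the 5 largest of each on B that passed without overlap. They were also drawn from up to 6 passing members of each list by moderated statistic, all tested members of the myogenic, Id, myosin heavy chain, ankyrin repeat and Hox lists, and the cell type markers. Other filters, pseudocounts, scalings and fits, and the fit without each array, were run as alternatives. Same-numbered arrays did not deviate together between 0 h and 24 h (correlations -0.088, -0.291 and -0.234 on A, and 0.098, -0.002 and -0.101 on B), so no pairing was used.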

Additional observations from a re-analysis of the deposited data

How the results depend on the processing

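Of 183 named probe sets that passed, 100 kept their call under every setting tried and 0 changed direction. Leaving out 1 array at a time gave 358 to 846 passing probe sets on the A arrays, against 755, and 24 to 148 on the B arrays, against 131. Of the named calls, 71 of 170 on A and 11 of 13 on B were lost without at least 1 array. The B count was 87 with no filter, 46 with no intensity trend and 45 with only the 6 arrays compared. With the replicate number as a block the counts were 733 on A and 103 on B. The labels do not say if equal numbers pair the arrays. The causes of these shifts were not tested. Genes under the intensity filter were not tested, which covers most markers of other cell types and the adult fast myosins Myh2 and Myh4.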

Other observations

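Further genes changed outside the groups above. Fxyd6, a modulator of the sodium pump, had 6.6, 13.4 and 132 at 0 h and 503, 427 and 240 at 24 h (log2 change 3.08 ± 0.51, limma adjusted p = 0.0017). Ncam1, an adhesion molecule of myoblasts and the neuromuscular junction, had 781, 880 and 972 against 2051, 2434 and 1512 (1.15 ± 0.18, adjusted p = 0.0013). Its other 4 probe sets tested did not pass (0.88, 0.10, -0.01 and -0.27). Alcam, another adhesion molecule, fell by 1.48 ± 0.32 (adjusted p = 0.01), and Plxna2, a semaphorin receptor, rose by 0.91 ± 0.16 (adjusted p = 0.003).

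The lysosomal protease Ctsl fell by 0.60 ± 0.10 (limma adjusted p = 0.0013) and the nucleolar protein Npm1 by 0.57 ± 0.12 (adjusted p = 0.0071), while a second Npm1 probe set (-0.39) did not pass. Ifitm3, an interferon-induced membrane protein, fell by 0.85 ± 0.16 (adjusted p = 0.0045). Tsc22d3, a glucocorticoid-induced gene, rose by 0.95 ± 0.18 (adjusted p = 0.0056) and Pmaip1, a pro-apoptotic p53 target, by 1.14 ± 0.22 (adjusted p = 0.0052). All of these calls except those on other probe sets were kept without any single array.

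The remaining largest changes belonged to genes of varied function. Myzap, a junction protein, had 57.0, 52.3 and 1.7 at 0 h and 181, 206 and 265 at 24 h (log2 change 2.37 ± 0.48, limma adjusted p = 0.0071). It was tested only through its 24 h values. Ndrg1, a stress-responsive gene, rose by 2.18 ± 0.37 (adjusted p = 0.0021) and Fads3, of the fatty acid desaturase family, by 2.19 ± 0.31 (adjusted p = 0.00051). Tafa5, a secreted protein, fell from 832, 537 and 777 to 190, 185 and 189 (-1.82 ± 0.33, adjusted p = 0.0031). These 4 kept their calls without any single array. Rgs4, a regulator of G-protein signalling, fell by 1.99 ± 0.50 (adjusted p = 0.025) and Selp, P-selectin, by 1.74 ± 0.42 (adjusted p = 0.02), and both lost their calls in 4 of the 15 fits without 1 array (highest adjusted p 0.13 and 0.08). Selp was tested only through its 0 h values.

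On the B arrays Tekt5 rose by 2.74 ± 0.47 (limma adjusted p = 0.011), Fam20a by 2.65 ± 0.52 (adjusted p = 0.026) and Ifi27 by 2.49 ± 0.43 (adjusted p = 0.011), while a second Ifi27 probe set (0.55) did not pass. Rps6ka6, a kinase, fell by 2.44 ± 0.45 (adjusted p = 0.017) and 1700012B09Rik fell by 3.43 ± 0.69 (adjusted p = 0.028). All 5 lost their calls without the leg-labelled array (adjusted p 0.053, 0.056, 0.066, 0.072 and 0.087 in this order). Each also lost it without at least 1 other array.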
